A study of Homo sapiens with 4 samples.

Results

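A-kinase anchoring proteins (AKAPs) are scaffolds that hold protein kinase A (PKA) at set places in the cell. The transcripts of 9 AKAP genes, AKAP1, AKAP7, AKAP8, AKAP8L, AKAP9, AKAP10, AKAP11, AKAP12 and AKAP13, were followed among 23615 genes in RNA that came down with the deacylase SIRT7. The genes were found in the table by their symbols, and all 9 passed the filter on low counts, as did 14555 genes in all. The family was selected on its low values in the SIRT7 pull-down relative to input, also with the trend of transcript length taken out. Its fold changes are therefore a description with no test, and nothing is read from how many of them were low. RefSeq places AKAP1 and AKAP10 on chromosome 17, AKAP7 and AKAP12 on chromosome 6, AKAP8 and AKAP8L on chromosome 19, and AKAP9, AKAP11 and AKAP13 on chromosomes 7, 13 and 15.

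The comparison asks which transcripts come down with SIRT7. There were 2 RNA immunoprecipitation (RIP) libraries, in which an anti-Flag gel pulled Flag-tagged SIRT7 and its RNA out of a lysate, and 2 libraries of total input RNA. All 4 came from HEK293T, a human embryonic kidney line, that stably overexpressed Flag-SIRT7, so the input cells carried the construct as well. Ribosomal RNA was removed from both kinds of RNA and the libraries were strand-specific. Nothing in the labels tells if replicates were grown apart, so errors and p-values measure only the spread between these libraries, possibly a technical one. A pull-down from untagged cells was not analysed here, and RNA that sticks to the gel is part of the RIP values. These are bulk libraries, in which fewer cells with a transcript and less of it per cell cannot be told apart.

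PKA is made of regulatory subunits, which bind cyclic AMP (cAMP), and catalytic subunits, which are set free when cAMP binds. An AKAP grips the dimer of regulatory subunits with a short amphipathic helix, and a separate part of the AKAP ties it to a membrane, the centrosome, the nucleus or a mitochondrion. Most AKAPs also carry phosphodiesterases, which break cAMP down, phosphatases or other kinases, and apart from the helix many AKAPs have little in common in sequence.

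The RIP libraries held 25655455 and 25998032 fragments on genes and the input libraries 18131602 and 17310753. A test with edgeR called 5783 genes lower in RIP, which is 39.7% of those tested, and 5531 genes higher, which is 38% of them, at a Benjamini-Hochberg adjusted p under 0.05. Directions are relative to a scaling (trimmed mean of M values, TMM) that puts the median gene at a log2 fold change of -0.03. With plain library totals 65.5% of the tested genes were lower and 17% higher, and the median gene was at -0.76. The HEK293T markers VIM, KRT8, KRT18, NEFM, INA and LIN28B had at least 185 fragments in each library. Of 12 markers of other cell types, 2 had no fragments in any library, and the 12 together summed to 312 and 332 in RIP and to 290 and 260 in input.

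The 9 AKAP genes together took 4615 and 4574 fragments in the RIP libraries, against 14209 and 11968 in the input libraries. As a share of all fragments this was 0.0180% and 0.0176% in RIP and 0.0784% and 0.0691% in input. Within a group the shares lay close together, and the groups were far apart. These are shares of plain library totals, with which the median tested gene was at a log2 fold change of -0.76. In each of the 9 genes both RIP libraries were below both input libraries in CPM (counts scaled to a common library size, with TMM factors), a pattern found in 45.5% of all tested genes.

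AKAP1 sits on the outer mitochondrial membrane, where it binds PKA and also RNA. It had 77.8 and 71.6 CPM in RIP, against 139 and 130 CPM in input, a log2 fold change of -0.85 (SE 0.0746). AKAP10, a dual-specificity scaffold that binds both types of PKA regulatory subunit, had 16.5 and 18.4 CPM in RIP and 40.7 and 40.5 CPM in input. Its log2 fold change was -1.22 (SE 0.0925). The gap between the groups was several times the gap within them for both genes.

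AKAP8 and AKAP8L code for related zinc finger proteins of the nucleus and are neighbours on chromosome 19. AKAP8, known as AKAP95, takes part in chromosome condensation and binds RNA. It had 40.9 and 36.9 CPM in RIP, against 41.7 and 43.8 CPM in input, the smallest log2 fold change of the 9 genes at -0.14 (SE 0.0852). The higher RIP library nearly touched the lower input library, and the fold change was less than 2 SE from 0. AKAP8L, its relative HA95, had 32.4 and 32.3 CPM in RIP and 46.4 and 45.2 CPM in input, a log2 fold change of -0.50 (SE 0.0813). Both RIP libraries of AKAP8L stood clearly apart from input, with almost no spread between them.

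AKAP7 and AKAP12 are scaffolds of the plasma membrane. AKAP7, also called AKAP18, tethers PKA near calcium channels in heart muscle, and it was the scarcest of the family in input. It had 4.62 and 5.41 CPM in RIP, against 6.42 and 5.97 CPM in input, on 92 and 109 fragments in RIP and 151 and 132 in input. Its log2 fold change of -0.31 carried an SE of 0.168, the widest in the family. AKAP12, known as gravin or SSeCKS, binds protein kinase C and the beta-adrenergic receptor. It had 12.3 and 12.7 CPM in RIP and 95.3 and 81.2 CPM in input, a 7.06-fold lower level in RIP and the lowest log2 fold change of the family at -2.82 (SE 0.101).

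AKAP9, also called AKAP450, is a giant coiled-coil protein from which microtubules grow at the centrosome and the Golgi. It had 9.84 and 10.3 CPM in RIP, against 73.4 and 60.7 CPM in input, a 6.66-fold lower level in RIP (log2 fold change -2.73, SE 0.111). AKAP11, or AKAP220, is found on vesicles and binds the kinase GSK3 and a phosphatase. It had 16.8 and 19 CPM in RIP and 85.9 and 70.1 CPM in input, a log2 fold change of -2.12 (SE 0.107). AKAP13, or AKAP-Lbc, activates the small GTPase RHOA besides anchoring PKA. It had 20.6 and 20.2 CPM in RIP, against 75.2 and 63.9 CPM in input, a log2 fold change of -1.77 (SE 0.0953). In AKAP9, AKAP11, AKAP12 and AKAP13 even the lower input library was more than 3 times the higher RIP library.

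**Figure D1:**
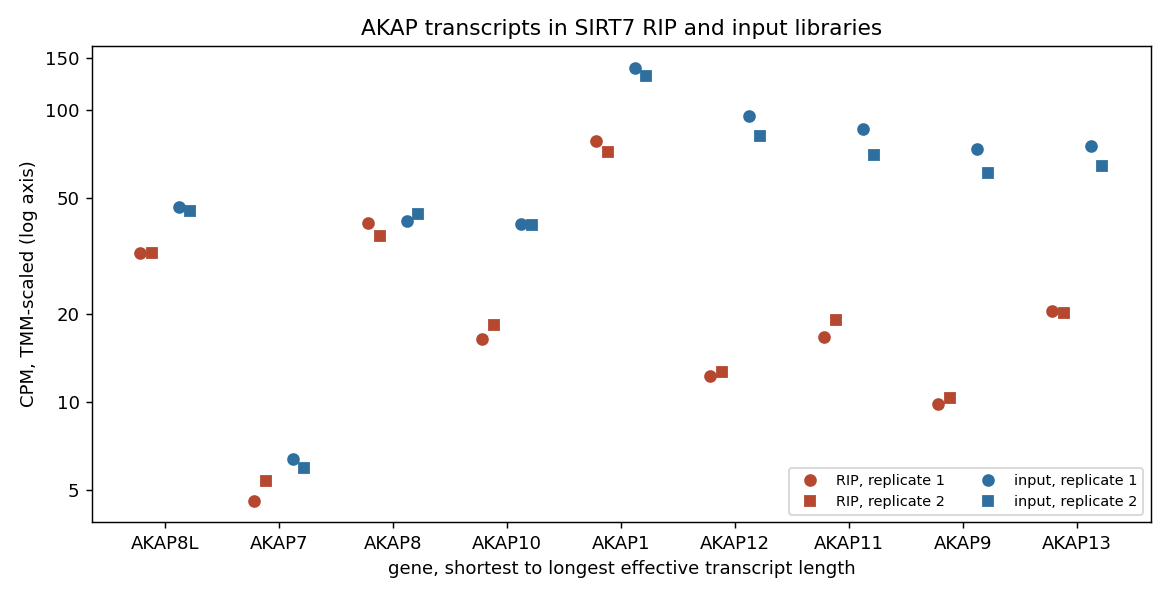
CPM on TMM-scaled library sizes (log axis) of the 9 AKAP genes, ordered from the shortest to the longest transcript, with 1 point per library, RIP in red and input in blue. AKAP8 points nearly meet (36.9 to 43.8 CPM), whereas the RIP points of AKAP12 and AKAP9 lie between 9.84 and 12.7 CPM, far below their input points.

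Across the family, 7 of the 9 genes were past the threshold of the test across all genes as lower and none as higher, and AKAP7 and AKAP8 were past neither side. The shares among all tested genes were 39.7% lower and 38% higher, and nothing is read from the family's count because the family was selected on this contrast. With library totals or upper-quartile factors all 9 were past it as lower, where 65.5% and 43.1% of all tested genes were lower. The median log2 fold change of the 9 genes was -1.22, against -0.03 for all tested genes. Single members ranged from -2.82 in AKAP12 to -0.14 in AKAP8, which is the difference between a 7.06-fold and a 1.10-fold lower level.

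The make-up of the family's own fragments does not depend on how libraries are scaled. The 4 genes with the longest transcripts, AKAP9, AKAP11, AKAP12 and AKAP13, held 25.7% and 27.4% of the family's fragments in RIP, against 54.6% and 51.0% in input. AKAP1 alone held 33.6% and 31.5% in RIP and 23.0% and 24.0% in input. AKAP8 held 17.6% and 16.3% in RIP, against 6.90% and 8.10% in input, and AKAP8L held 14% and 14.3% in RIP and 7.68% and 8.35% in input. AKAP10 was the member whose share was most alike in both groups, at 7.13% and 8.11% in RIP and 6.74% and 7.48% in input. AKAP12 went the other way from AKAP8, with 5.31% and 5.60% in RIP, against 15.8% and 15.0% in input. These shares sum to a whole, so a lower share of the long members raises the others.

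**Figure D2:**
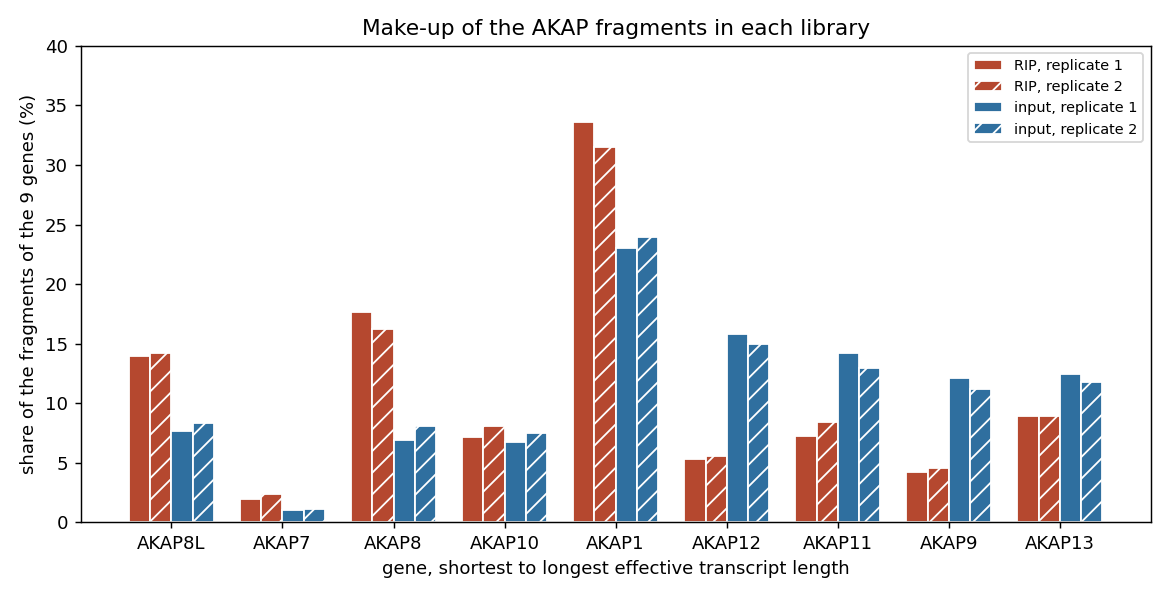
Share (%) of the fragments of the 9 AKAP genes that each gene holds, with 1 bar per library, RIP in red and input in blue and the second replicate hatched, and genes ordered by transcript length. AKAP1 is the largest in all 4 libraries, and the 4 longest genes on the right have lower bars in RIP than in input.

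Levels were compared between genes on the FPKM scale, the authors' scaled fragments per kilobase, which takes length into account. In input, AKAP1 was highest at 32.8 ± 1.18 FPKM (SD, n = 2), followed by AKAP8L at 22.1 ± 0.122, AKAP8 at 11.8 ± 0.576, AKAP10 at 10.0 ± 0.0943 and AKAP12 at 9.99 ± 0.979. AKAP11 came next at 7.41 ± 0.966 FPKM in input, then AKAP9 at 5.05 ± 0.609, AKAP13 at 4.94 ± 0.477 and AKAP7 at 2.1 ± 0.0749. AKAP10 and AKAP12 did not differ beyond their spread in input, nor did AKAP9 and AKAP13.

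In RIP the order began with the same 4 genes, AKAP1 at 18.4 ± 1.14 FPKM (SD, n = 2), AKAP8L at 15.8 ± 0.0402, AKAP8 at 10.9 ± 0.801 and AKAP10 at 4.36 ± 0.326. AKAP11 at 1.72 ± 0.152 FPKM and AKAP7 at 1.71 ± 0.188 could not be told apart in RIP, and AKAP13 at 1.47 ± 0.0132 and AKAP12 at 1.42 ± 0.0294 lay just below them. AKAP9 was last in RIP at 0.768 ± 0.0239 FPKM. Between the highest and the lowest member there was a ratio of 24.0 in RIP and of 15.7 in input. AKAP12 was the eighth in RIP and the fifth in input, while AKAP7 was the sixth in RIP and the ninth in input.

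Transcript length was read from the table as scaled fragments over FPKM and is given in multiples of the median tested gene. AKAP8L was the shortest member at 0.712, AKAP7 had 1.02, AKAP8 1.24, AKAP10 1.39 and AKAP1 1.41. AKAP12 had 3.04, AKAP11 3.62, AKAP9 4.56 and AKAP13 4.83 times the median length, so these 4 genes fall in the longest of 10 equal groups of tested genes ordered by length. In that group 1241 of 1456 genes were called lower in RIP and the median log2 fold change was -1.13. Among the 9 members the fold change and the length had a Spearman rho of -0.77, and across all 14555 tested genes it was -0.60. Both are descriptions across genes, which share the same 4 libraries.

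**Figure D3:**
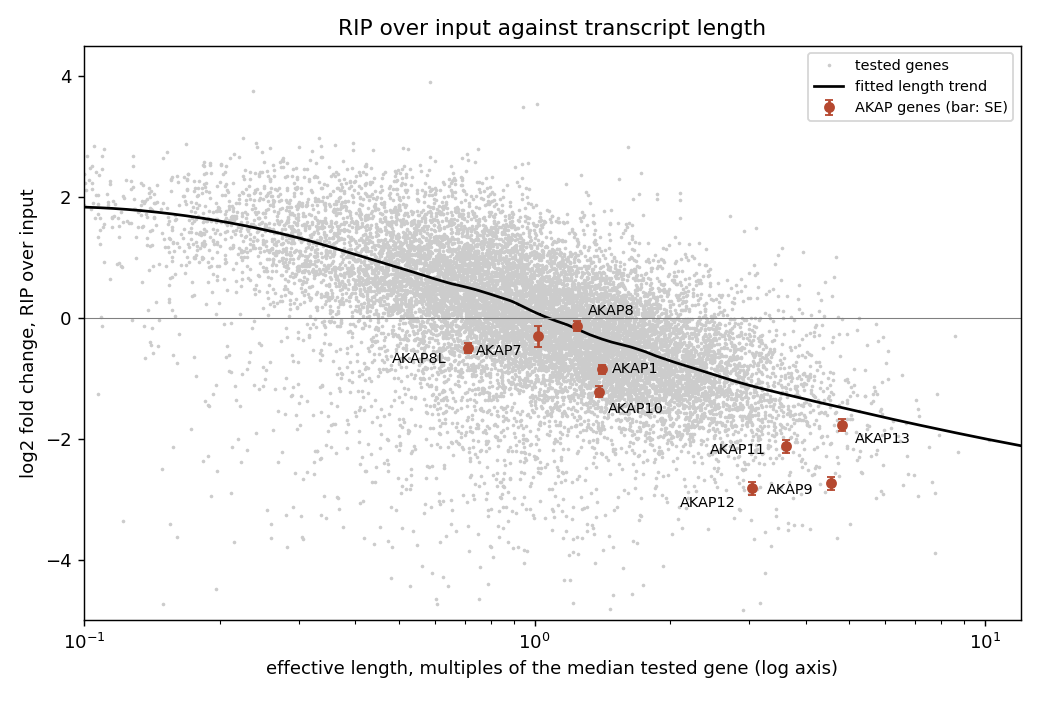
Log2 fold change of RIP over input against effective transcript length in multiples of the median tested gene (log axis), with tested genes in grey, the fitted length trend as a black line and the AKAP genes in red with their SE. AKAP8 lies on the trend and the other 8 lie below it, AKAP12 and AKAP9 furthest, and 104 genes fall outside the axes.

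At the length of each member the fitted trend had a value that could be set beside the measured one. For AKAP13 the trend stood at -1.49, close to the measured log2 fold change of -1.77. For AKAP9 it stood at -1.44 with -2.73 measured, for AKAP11 at -1.27 with -2.12 measured, and for AKAP12 at -1.13 with -2.82 measured. The trend was -0.35 for AKAP1, -0.33 for AKAP10, -0.19 for AKAP8 and 0.07 for AKAP7. AKAP8L lies at a length where the trend was positive, at 0.50, although its own log2 fold change was -0.50.

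In a second fit, with the trend taken out, the family median was -0.85, against -0.10 for all tested genes. Only AKAP7 and AKAP8L had lower values than in the first fit, and the other 7 genes had higher ones. AKAP12 remained the lowest at -1.69 (SE 0.0805) after length correction, with AKAP9 at -1.28 (SE 0.0861). AKAP8L followed at -1.002 (SE 0.0745), a place it did not have before correction. AKAP10 was at -0.88 (SE 0.0853), AKAP11 at -0.85 (SE 0.0819), AKAP1 at -0.50 (SE 0.0652), AKAP7 at -0.38 (SE 0.166) and AKAP13 at -0.28 (SE 0.0749). AKAP8 was at 0.05 (SE 0.0784), where its value and its SE do not give a direction.

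**Figure D4:**
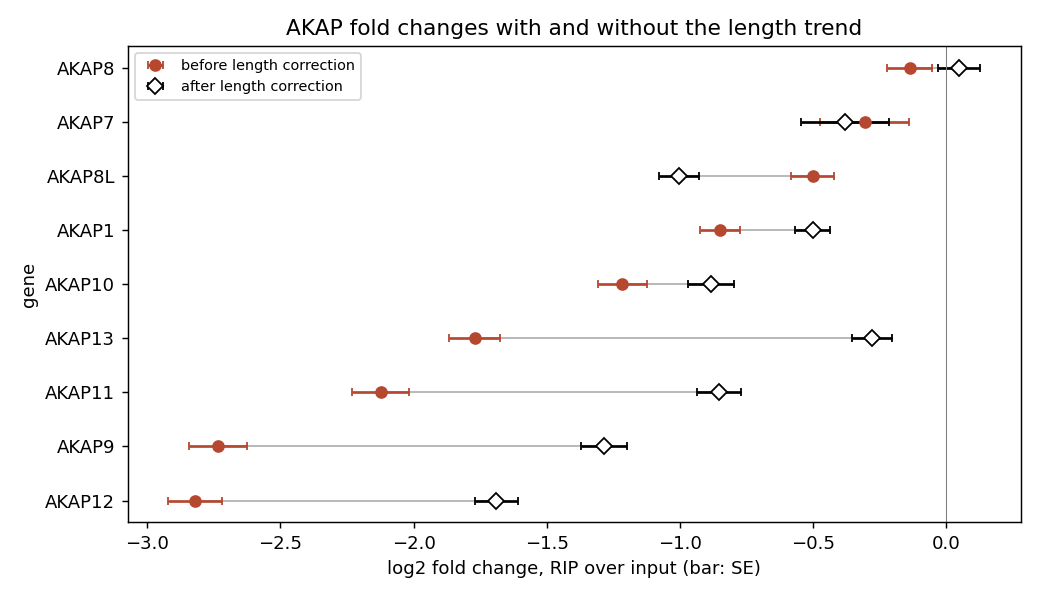
Log2 fold changes of RIP over input of the 9 AKAP genes before (red circles) and after (open diamonds) length correction, with bars for the SE. AKAP13 moves from -1.77 to -0.28 with the correction, AKAP8L from -0.50 to -1.002, and AKAP12 stays lowest at -1.69.

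With the trend taken out, 7 members were past the threshold as lower and none as higher, where 39.2% of all tested genes were called lower and 31.7% higher. The rule that chose the family used these values too. Only 90 tested genes were longer than AKAP13 and 118 longer than AKAP9, so the trend at their lengths leans mostly on shorter genes. One effective length per gene also stands for all of its isoforms. Between libraries it differed by 1.20% in AKAP13, by 0.85% in AKAP12 and by less in the others.

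The input libraries differed from each other along length as well. Both input libraries entered the contrast on which the family was chosen, so their ratio in the members is not independent of that choice. The log2 ratio of the first over the second input library was 0.27 in AKAP9, 0.29 in AKAP11, 0.23 in AKAP12 and 0.23 in AKAP13. It lay between -0.07 and 0.10 in the other 5 members. Over the longest of the 10 length groups the median of this ratio was 0.14, and over the shortest it was -0.11. The same ratio between the RIP libraries ran from -0.21 in AKAP7 to 0.15 in AKAP8 with no order by length in the family (Spearman rho 0.0167 over the 9 genes, as a description). Without the first input library the log2 fold changes of AKAP9, AKAP11, AKAP12 and AKAP13 were -2.60, -1.97, -2.71 and -1.65, and without the second they were -2.85, -2.24, -2.91 and -1.86.

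Likeness of pattern was measured as the Euclidean distance in log2(CPM + 0.5) over the 4 libraries. The search itself picks genes of similar level and similar fold change, so nothing is read from their fold changes. Nearest to AKAP12, the member with the lowest fold change, were NIN at a distance of 0.254, ALMS1 at 0.262 and MYSM1 at 0.293, with log2 fold changes of -2.85, -2.61 and -2.64. NIN codes for ninein of the centrosome, ALMS1 for a protein of centrosomes and cilia, and MYSM1 for a histone deubiquitinase. Their lengths were 2.66, 4.74 and 2.82 times the median gene, and after length correction they were at -1.84, -1.13 and -1.58. Nearest to AKAP8, the member with the highest fold change, were NIF3L1 at 0.102, SGOL2 at 0.117 and SCML2 at 0.119, with log2 fold changes of -0.10, -0.14 and -0.14.

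Other genes named AKAP were read from the same fit. The table holds 8 of them, of which 5 passed the filter. Among these 4 fell and none rose, where 39.7% of all tested genes were lower and 38% higher. The list's median log2 fold change was -1.16, and its median length was 2.50 times that of all tested genes. AKAP5, known as AKAP79, holds calcineurin and PKA at synapses. It had 4.47 and 4.36 CPM in RIP, against 15.3 and 13.6 CPM in input (log2 fold change -1.71, SE 0.143, edgeR adjusted p = 2.05e-08). AKAP6, a scaffold of the nuclear envelope in muscle, had a log2 fold change of -1.16 on few fragments (adjusted p = 0.00120 with edgeR), and the sperm gene AKAP3 had -0.62 (adjusted p = 0.0427 with edgeR).

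AKAP2, also known as AKAP-KL, fell by 1.36 on the log2 scale (edgeR adjusted p = 1.26e-07), while the read-through gene PALM2-AKAP2 was at -0.32 (edgeR adjusted p = 0.161). These entries share a locus and their fragments were fractional, so the split between them is uncertain. AKAP4 and AKAP17A were listed with no fragments, and AKAP14 with 3 in RIP and 1 in input in all. After length correction AKAP5 was at -0.84, AKAP3 at -0.65 and AKAP2 at -0.42, AKAP6 was at 0.15 with its call lost (edgeR adjusted p = 0.630), and PALM2-AKAP2 was higher at 0.70 (edgeR adjusted p = 0.00951). The list then had 3 genes lower and 1 higher of 5 tested, with a median of -0.42. Of all tested genes 39.2% were then lower and 31.7% higher, with a median of -0.10. The AKAP3 call before correction was lost without the first RIP, the second RIP or the first input library, where its log2 fold change was -0.47, -0.77 and -0.46.

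The rest of the cAMP and PKA pathway was taken as 9 lists, of which 65 of 75 genes were tested. In RIP 39 of these were lower and 13 higher, which is 60% and 20%, with a median log2 fold change of -0.42. The background was 39.7% lower and 38% higher with a median of -0.03. Their median length was 1.53 times that of all tested genes. After length correction 24 were lower and 19 higher, or 36.9% and 29.2%, with a median of 0.01, where all tested genes had 39.2% lower and 31.7% higher and a median of -0.10. Both shares after correction lay within a few percent of those for all tested genes.

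PKA subunit genes, whose products the AKAPs hold, were mostly lower in RIP, before and after length correction. Of the 4 regulatory subunit genes 3 fell and 1 rose in both fits. Among all tested genes 39.7% were lower and 38% higher, and 39.2% and 31.7% after correction. A list of 4 genes is small to set beside such shares. PRKAR1A, the main type I regulatory subunit, had 132 ± 0.654 CPM in RIP and 204 ± 2.16 CPM in input (SD, n = 2 each; log2 fold change -0.63, edgeR adjusted p = 3.80e-07). It was at -0.56 after correction. PRKAR2A and PRKAR2B, the type II subunits that most AKAPs prefer, fell, with log2 fold changes of -0.67 and -0.88 (edgeR adjusted p = 1.48e-06 and 3.68e-07), and were at -1.05 and -0.64 after correction. PRKAR1B, a type I form known from the brain, rose 1.70-fold (25.0 ± 2.82 CPM in RIP, 14.7 ± 0.799 CPM in input, SD, n = 2 each, edgeR adjusted p = 8.15e-06), and it stayed higher after correction at 0.43. With library totals PRKAR1B was at 0.04 and was not called.

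All 3 tested catalytic subunit genes fell, where 39.7% of all tested genes were lower. PRKACB had a log2 fold change of -1.28 and the related kinase gene PRKX one of -1.09 (edgeR adjusted p = 1.05e-08 and 2.29e-08), and they were at -0.87 and -0.29 after correction. PRKACA was at -0.22 (edgeR adjusted p = 0.0345) and at -0.53 after correction. Its uncorrected call was lost without the first RIP (edgeR adjusted p = 0.0525), the second RIP (0.247) or the second input library (0.209), with log2 fold changes of -0.27, -0.16 and -0.14. The genes of the PKA inhibitor peptides moved both ways. PKIG rose 2.18-fold and PKIB 1.53-fold, while PKIA fell by 0.47 on the log2 scale (edgeR adjusted p = 2.52e-08, 0.00171 and 0.000649). None of the 3 passed after length correction, where they lay between -0.08 and 0.01. With library totals PKIB was at -0.12.

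Adenylyl cyclases make cAMP and phosphodiesterases break it down. Among 6 tested adenylyl cyclase genes 4 fell and none rose (median log2 fold change -0.37), whereas after correction 4 rose and none fell (median 0.40). All tested genes had 39.7% lower and 38% higher before correction, and 39.2% and 31.7% after it. ADCY1, a calcium-stimulated cyclase with a long transcript, was at -0.40 before (edgeR adjusted p = 0.00111) and 1.05 after correction (adjusted p = 1.15e-08). ADCY9 was at -0.93 and 0.12, ADCY6 at -0.34 and 0.49, and ADCY3, the most abundant of them, at -0.12 (edgeR adjusted p = 0.144) and 0.32. ADCY5 was called only after correction, at 1.12 (edgeR adjusted p = 0.00215). ADCY6 lost its uncorrected call without the second RIP library, where it was at -0.19, and without the first input library, at -0.17. The list had 2 genes lower without the second RIP library, and its median was -0.23 without the first input library.

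Of the list of 12 cAMP phosphodiesterase genes, which counts the AKAP-like scaffold PDE4DIP (myomegalin), 9 fell and none rose (median log2 fold change -0.89). After correction 5 fell and 1 rose (median -0.33). All tested genes had 39.7% lower and 38% higher before correction, and 39.2% and 31.7% after it. PDE4D, whose product is carried by several AKAPs, had 5.71 ± 0.197 CPM in RIP and 20.4 ± 1.25 CPM in input (SD, n = 2 each; log2 fold change -1.83, edgeR adjusted p = 1.60e-09), and it was at -0.76 after correction. PDE3B was at -1.19 before and -0.39 after correction. PDE8B had the lowest value, -2.58 (edgeR adjusted p = 1.81e-05) and -2.19 after correction, on 41 to 49 fragments in input and 5 to 8 in RIP. PDE4DIP and PDE7A fell, with log2 fold changes of -0.89 and -0.72 (edgeR adjusted p = 6.21e-07 and 1.59e-06), and after correction they were at -0.19 and 0.17 and not called (edgeR adjusted p = 0.0560 and 0.0747).

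**Figure D5:**
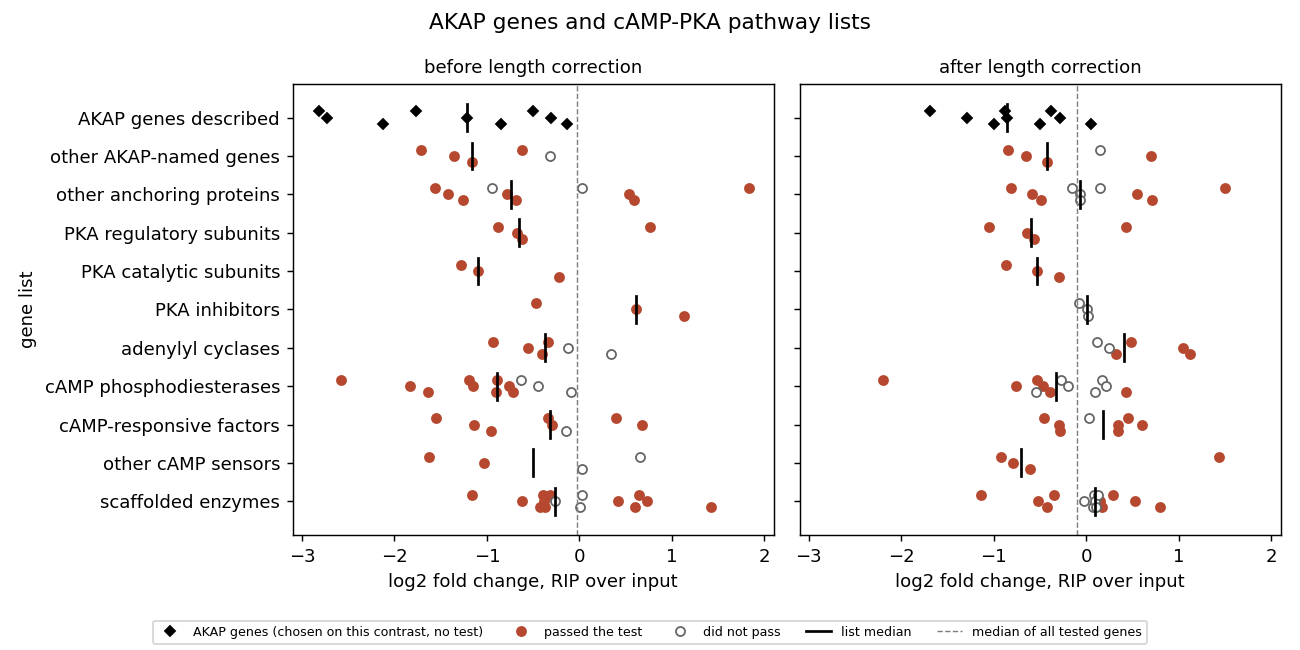
Log2 fold changes of RIP over input for the 9 AKAP genes (black diamonds, no test) and for the genes of the other AKAP and pathway lists, before (left) and after (right) length correction, filled where a gene passed the edgeR test, with a bar at each list's median and a dashed line at the median of all tested genes. Medians of the AKAP genes, the other AKAP-named genes, the PKA regulatory and catalytic subunits, the phosphodiesterases and the other cAMP sensors lie left of the dashed line in both panels, while that of the adenylyl cyclases moves from -0.37 to 0.40.

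PKA-anchoring proteins that do not carry the AKAP name were split. Among 10 tested genes 5 fell and 3 rose (median log2 fold change -0.74), and 3 fell and 3 rose after correction (median -0.07). The background was 39.7% lower and 38% higher, and 39.2% and 31.7% after correction. RAB32, a GTPase that anchors PKA at mitochondria, rose 3.55-fold (edgeR adjusted p = 2.65e-10) and EZR, the membrane-cytoskeleton linker ezrin, 1.45-fold (edgeR adjusted p = 2.18e-06), although EZR was at -0.19 with library totals. ACBD3 of the Golgi and ARFGEF2, an exchange factor for ARF GTPases, fell, with log2 fold changes of -0.69 and -1.26 (edgeR adjusted p = 4.77e-07 and 1.51e-09). After correction RAB32 was at 0.71, EZR at 0.55 and ACBD3 at -0.49, ARFGEF2 was at -0.07 with its call lost (edgeR adjusted p = 0.387), and CMYA5, a muscle protein, was at 1.5 on few fragments.

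The cAMP-responsive transcription factors and coactivators had 5 genes lower and 2 higher of 8, and 3 lower and 4 higher after correction. The background was 39.7% lower and 38% higher, and 39.2% and 31.7% after correction. CREB1, the factor that PKA phosphorylates, fell by 1.55 on the log2 scale (edgeR adjusted p = 1.88e-10) and was at -0.30 after correction. The long coactivator genes CREBBP and EP300 fell before correction, with log2 fold changes of -0.95 and -1.13 (edgeR adjusted p = 1.40e-07 and 2.96e-09), and were at 0.34 and 0.03 after it. The shorter coactivator gene CRTC2 rose 1.60-fold and was at 0.46 after correction, but at -0.05 with library totals. CRTC1 and CRTC3 were called lower before correction, at -0.34 and -0.30, and higher after it, at 0.60 and 0.34. CREM was called higher before correction, at 0.39, and lower after it, at -0.29. Without the second RIP library 1 gene of the list was higher. Among 4 tested genes of other cAMP sensors 2 fell and none rose, and 1 rose without the first RIP library. Their median log2 fold change was -0.50, and it was -0.28 without the second RIP library, -0.04 with no filter on low counts and -0.70 after length correction. The Popeye domain gene BVES and the exchange factor gene RAPGEF4 had log2 fold changes of -1.63 and -1.03 (edgeR adjusted p = 2.44e-08 and 1.44e-05). They were at -0.92 and -0.61 after correction, when POPDC3 at -0.79 and RAPGEF3 at 1.43 were called as well.

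Enzymes known to ride on AKAP scaffolds moved both ways, with 7 of 15 lower and 5 higher, and 4 lower and 5 higher after correction. These are 46.7% and 33.3% before correction, where all tested genes had 39.7% and 38%. After correction they are 26.7% and 33.3%, where all tested genes had 39.2% and 31.7%. Their median log2 fold change was -0.26, and -0.06 without the first RIP library. The phosphatase gene PPP1CA rose 2.68-fold (419 ± 9.29 CPM in RIP, 157 ± 9.40 CPM in input, SD, n = 2 each, edgeR adjusted p = 5.17e-11) and was at 0.53 after correction. PRKCA, a protein kinase C gene, was called lower before correction, at -0.38, and higher after it, at 0.79. Another catalytic subunit gene of the phosphatase of PPP1CA, PPP1CC, was at 0.03 before (edgeR adjusted p = 0.705) and at -0.35 after correction. RHOA, the GTPase that AKAP13 activates, rose 1.66-fold (edgeR adjusted p = 1.42e-07) and was at 0.15 after correction and at -6.54e-05 with library totals. PPP3CB, a catalytic subunit gene of calcineurin, had a log2 fold change of -1.16 (edgeR adjusted p = 5.91e-08) and stayed at -1.13 after correction.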

How the data were processed

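The build was hg19 and the tools were Cuffdiff 2.2.1, TopHat2 2.0.13, Bowtie2 2.2.6 and cutadapt 1.5, per the submitters' processing notes. For the gene annotation and the strand setting the sources used here say nothing. Expected counts, meaning fragments that the authors estimated for each gene, were deposited for each library, and 97.9% of them were whole. The deposited scaled signal is the same fragments multiplied by 1 factor per library, and the deposited FPKM adds transcript length. The table numbers replicates from 0 and the labels from 1, so replicate numbers rest on that order. Counts were rounded. Genes that passed filterByExpr (minimum count 10, total 15) entered the quasi-likelihood test of edgeR 4.0.16 under R 4.3.3 (TMM, glmQLFit, glmQLFTest, group as the only term, Benjamini-Hochberg adjustment at 0.05), and the SE is the fold change over the square root of F. Because fragments carry no molecular identifiers, depth limits only the counting error.

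Length correction added an offset per gene and library, a loess (span 0.3) of log2(CPM + 0.1) deviations on log2 effective length fitted on genes with a mean of at least 5 CPM. Both fits were run on simulated data with 200 genes changed, far fewer than were called here. That run checks only the code. The RIP libraries differed by 3.40 chi-square per gene and the input libraries by 6.17, more than sampling noise, so all 4 were kept. Gene names come from the table. RefSeq (GRCh38.p14) gave chromosome and neighbour only. The members and lists were chosen with earlier results of these data known. The text names all members, the other tested AKAP-named genes, and per list at least the 2 most abundant and the 2 most significant genes. PRKAR1B, PKIB, PDE8B, CRTC2, CMYA5, ADCY5, RAPGEF3, CRTC1, CRTC3, CREM and PRKCA were added after their values were seen. Alternatives were library totals, upper-quartile factors, DESeq2 1.42.0, no filter, leaving out the 10 most abundant genes or single libraries, a replicate block, and limma 3.58.1 on log2(FPKM + 1) and log2(FPKM + 0.1).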

Additional observations from a re-analysis of the deposited data

How the results depend on the processing

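All 9 AKAP genes kept a log2 fold change below 0 under every alternative except AKAP8 after length correction (0.05). In the fits on all libraries no member was called higher. In these fits 7 were called lower, except with library totals and upper-quartile factors, where 9 were. Of all tested genes 39.7% were lower with TMM and 39.2% after length correction. The shares were 65.5% with library totals and 43.1% with upper-quartile factors. The other fits on all libraries called from 5018 genes (DESeq2) to 5861 genes (replicate block) lower. The family was selected as low in these same libraries, so nothing is read from its counts. Length correction put the family's median at -0.85. Library totals put it at -1.95 and the median of all genes at -0.76 (-0.03 with TMM), and the family minus all genes was -1.19 in both scalings. With library totals 2479 genes were higher and 9539 lower (20.6% of calls higher, against 48.9% with TMM), and 3 pathway genes were higher. After length correction 24 pathway genes were lower. Leaving out single libraries gave family medians of -1.29 to -1.13.

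Length correction turned the sign of 22 of the 70 tested genes of all lists, of which 6 were called lower before and higher after it and 1 the reverse. Among the genes given above by the naming rule, and among list medians, signs turned for the medians of adenylyl cyclases (0.40), cAMP-responsive factors (0.18) and scaffolded enzymes (0.10), and for AKAP6 (0.15), PALM2-AKAP2 (0.70), ADCY3 (0.32), ADCY6 (0.49), ADCY9 (0.12), ADCY1 (1.05), PDE7A (0.17), EP300 (0.031), CREBBP (0.34), POPDC3 (-0.79) and PPP1CC (-0.35). Among the genes added after their values were seen, length correction turned CRTC1 (0.60), CRTC3 (0.34), CREM (-0.29) and PRKCA (0.79). With library totals signs turned for the median of PKA inhibitors (-0.12), EZR (-0.19), POPDC3 (-0.70), RHOA (-6.54e-05) and PPP1CC (-0.70). With these totals PKIB (-0.12) and CRTC2 (-0.050), also among the added genes, turned as well. The replicate block left 5580 genes higher and 5861 lower and the same numbers of members and pathway genes called. Deviations of samples with the same number had a correlation of 0.02 across genes. With 2 libraries a group this cannot tell if a number marks a shared culture. Of all tested genes DESeq2 called 5018 lower, against 5783 with edgeR. In the 9 pathway lists it called 35 lower, against 39 with edgeR (phosphodiesterases 7 against 9, cAMP-responsive factors 4 against 5). AKAP3 and PRKACA were not called with DESeq2 or with no filter. With 2 libraries a group, depth limits AKAP7 most among the members.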
